A study of Mus musculus with 89 samples.

Results

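Clumps counted as Paneth containing by a rule on marker UMIs were 1075 wells of the 15626 clump wells that came from mice 1 to 5, and each well holds a small piece of jejunal epithelium of attached cells. A well entered with more than 500 UMIs (unique molecular identifiers, 1 for each captured mRNA molecule), 200 or more detected genes and a mitochondrial share of no more than 30%, which 6004 wells did. It counted as crypt-like where the lipid transport genes Apoa1, Apoa4 and Apob, which mark villus enterocytes, gave less than 0.5% of its UMIs, and 3342 wells did. Members were chosen by their own UMI counts: they were the crypt-like wells in which 7 Paneth cell genes, namely Lyz1, Mmp7, Defa24, Defa17, AY761184, AY761185 and Itln1, together gave 10 or more UMIs. The 1262 crypt-like wells with at most 1 such UMI, here called marker-poor clumps, were the wells compared with them, and 1005 crypt-like wells with 2 to 9 lay between. The members numbered 60, 3, 36, 970 and 6 in mice 1 to 5, and the marker-poor clumps 269, 217, 222, 403 and 151. The name goes with the rule and not with every well: 877 of the 1075 members had less than 1% of their UMIs from the 7 genes. Only 14 of these had a larger share from them than every well of villus epithelium on their plate. That is a strict measure, since it sets each well beside a plate maximum.

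The clump mice were untreated C57BL/6 males aged 3 months on regular chow, and no genetic change is named for any of them. Jejunal epithelium was loosened with EDTA without enzymes, and clumps were stained with Hoechst and sorted by DNA content, either 4n, called pairs, or above 4n, called larger clumps, so no marker of any cell type took part in the sort. Mice 1, 4 and 5 gave both kinds of clump, and mice 2 and 3 gave pairs only. A clump is a mixture of neighbouring cells, and within it fewer cells of a type and less RNA per cell cannot be told apart.

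Paneth cells sit at the base of the small intestinal crypt, between the stem cells. They secrete granules rich in lysozyme and in alpha-defensins, small peptides that kill bacteria and that are activated in the mouse by the protease matrilysin, encoded by Mmp7. They also present signals to the stem cells, among them Wnt3, epidermal growth factor and Notch ligands, and in the mouse they share a secretory origin and several transcription factors with goblet cells.

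Promoter sequences from RefSeq (build GRCm38.p6) are shown for 2 pairs of close relatives on which the results turn. Lyz1 chose the wells and Lyz2, the neighbouring lysozyme gene, did not. The first transcribed bases and the bases just before them are given for each, with the 1 base that differs in capitals.

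Lyz1, chr10:117292819-117292918, minus strand: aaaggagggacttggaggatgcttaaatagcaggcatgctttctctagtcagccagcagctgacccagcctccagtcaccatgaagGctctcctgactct

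Lyz2, chr10:117282223-117282322, minus strand: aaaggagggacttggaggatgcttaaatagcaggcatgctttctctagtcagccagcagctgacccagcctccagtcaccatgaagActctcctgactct

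Of these 100 bases 99 were equal, against 201 of the whole 300-base windows. Defa20 and Defa21 are alpha-defensin genes outside the rule whose shares differed between the mice (given further on). Their windows run from 250 bases before the start to 50 after it, and the capitals mark the letters TCAAAG, which read CTTTGA on the other strand and are the core of the motif bound by the Tcf and Lef factors of Wnt signalling, and TATAAA, the letters of the TATA box. The 2 motifs share no bases in these windows.

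Defa20, chr8:21509008-21509307, plus strand: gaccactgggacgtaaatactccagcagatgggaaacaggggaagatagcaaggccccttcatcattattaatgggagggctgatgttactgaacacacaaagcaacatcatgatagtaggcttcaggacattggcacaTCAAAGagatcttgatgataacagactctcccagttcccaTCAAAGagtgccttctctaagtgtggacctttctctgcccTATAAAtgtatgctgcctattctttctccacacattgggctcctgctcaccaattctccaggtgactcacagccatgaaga

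Defa21, chr8:21025295-21025594, plus strand: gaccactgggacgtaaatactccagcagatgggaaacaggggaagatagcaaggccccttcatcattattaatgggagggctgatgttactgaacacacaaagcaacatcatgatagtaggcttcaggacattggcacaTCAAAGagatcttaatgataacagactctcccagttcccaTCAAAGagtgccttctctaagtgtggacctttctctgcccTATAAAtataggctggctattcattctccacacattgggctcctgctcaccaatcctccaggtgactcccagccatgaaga

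The 2 windows were equal at 293 of 300 bases and held the same motifs. Of 51 rule, alpha-defensin and other antimicrobial genes in the table, 29 had a promoter in RefSeq's table. CTTTGA on either strand stood in 17 of the 29, against 16% of all 32851 promoters, and TATAAA in 15, against 13.6%. Copied genes such as Defa20 and Defa21 have nearly the same sequence, so these are not separate occurrences. The windows of Lyz1, Lyz2, Ang4, Ang5 and Mptx2 held neither motif. A match is a description of letters and not a binding site.

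The members differed widely in how much of their RNA came from the 7 genes, which is a description of values the rule itself used. The marker share of a member had a median of 0.339% of its UMIs and ran from 0.0147% to 27.7%. It was below 0.1% in 121 members, 0.1 to 0.2% in 177, 0.2 to 0.5% in 421, 0.5 to 1% in 158, 1 to 2% in 55, 2 to 5% in 49, 5 to 10% in only 10, 10 to 20% in 53 and above that in 31. The distribution therefore had a broad lower part that made up most of the members and a small separate group above the sparsely filled stretch between 5 and 10%. At the threshold itself little changed, since the 49 wells with 9 marker UMIs had a median of 7048 UMIs in all and the 50 wells with 10 had 8869.5.

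**Figure D1:**
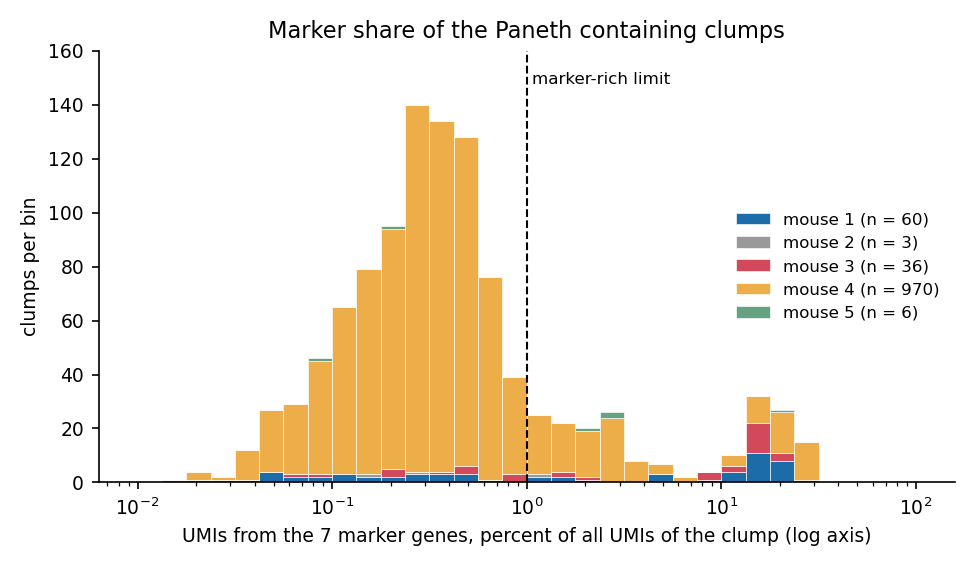
The share of each member's UMIs that came from the 7 marker genes (x axis, percent, log scale) against the number of members in each bin (y axis), with bars stacked by mouse. Most of the 1075 members lie left of the dashed line at 1%, and nearly all of those came from mouse 4. The group near and above 10% drew on mice 1, 3 and 4, with 1 member of mouse 5.

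Villus-like clumps, with apolipoproteins at or above the limit, should hold no Paneth cell and were counted in the same way. Among 2662 of them, 110 also had 10 or more marker UMIs, 22 had a marker share of 1% or more and none had 5% or more. In the larger clumps of mouse 4, which supplied 962 of the 1075 members, 56.3% of the crypt-like wells were members (exact binomial 95% interval 53.9 to 58.7%) and 48.5% of the villus-like wells had as many marker UMIs (40.8 to 56.3%). At a marker share of 1% or more, the same sample had 138 of 1709 crypt-like wells (8.07%) and 17 of 171 villus-like wells (9.94%). There the 1% limit was thus reached no less often by villus-like wells. At 5% or more it had 44 crypt-like wells (2.57%) and 0 villus-like wells. The median depth was 9345 UMIs in members, 1552 in marker-poor clumps and 1649 in villus-like clumps.

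The same held plate by plate. The 7 plates with 30 or more members held 1000 members, 93.0% of all. On all 7 of them the 7 genes took at least as large a share of the UMIs of villus-like wells (0.0515 to 0.496%) as of crypt-like wells below 1% (0.0385 to 0.411%). On the other 31 plates that could be compared, the medians were 0.0202% and 0.0250%. Over these 38 plates the villus-like share went with the share in the crypt-like wells below 1% (Spearman's rho 0.767, given as a description, since wells of a plate share a library) and with the marker UMIs held by the plate's own wells above 1% (rho 0.740).

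**Figure D2:**
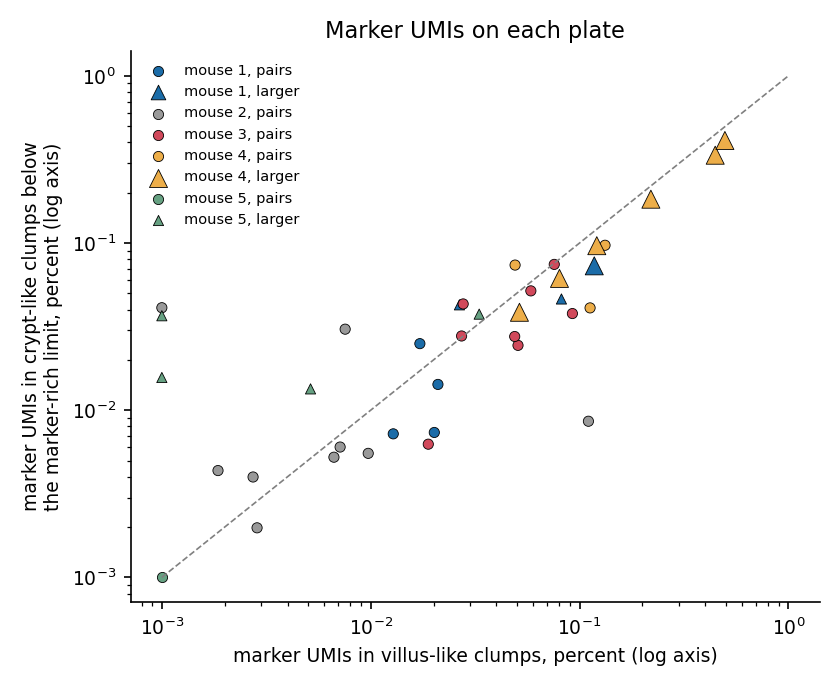
Each point is a plate, with the percent of UMIs from the 7 marker genes in its villus-like clumps (x axis, log scale) and in its crypt-like clumps below a marker share of 1% (y axis, log scale). Colours are mice, circles are plates of pairs, triangles are plates of larger clumps, large symbols are the 7 plates with 30 or more members, and the dashed line marks equal shares; the large symbols lie on or below it.

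The members were therefore described in 2 groups, split at a marker share of 1%. The 877 members below it are called low-marker members, and only 14 of them exceeded the marker share of every villus-like well of their plate. That bar is a plate maximum over shallower wells (median 1649 UMIs, against 10408), so it is a strict one. On the 7 plates with 30 or more members, crypt-like wells below 1% had no larger share of marker UMIs than villus-like wells. The former include wells with fewer than 10 marker UMIs, and the latter include wells at or above 1%. The low-marker members had median shares of 0.126, 0.363 and 0.288% in mice 1, 3 and 4, against 0, 0.0337 and 0.128% in villus-like wells. The limit of 10 UMIs enters this difference. The wells at or above 1% are called marker-rich clumps; there were 205, of which 198 were members and 7 had fewer than 10 marker UMIs in a shallow well. They came from 28 of 41 plates, with at most 58 on 1 plate, and held 90.9% of the marker UMIs of all crypt-like wells. By sample they numbered 3 pairs and 29 larger clumps in mouse 1, 1 pair in mouse 2, 23 pairs in mouse 3, 7 pairs and 138 larger clumps in mouse 4, and 1 pair and 3 larger clumps in mouse 5.

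Marker-rich clumps were not deeper than the rest of the members. Their median was 2764 UMIs, against 10408 in the low-marker members, and in mouse 4 it was 1785. The 94 wells at or above 5%, by contrast, had a median of 10907.5 UMIs and 1404.5 genes, of which 1633 UMIs came from the 7 genes. The median mitochondrial share was 3.22% in marker-rich clumps, 5.28% in members and 8.35% in marker-poor clumps; the part of depth and of mitochondrial share in the results below was not tested, beyond a comparison matched on UMIs outside the antimicrobial genes that is given with the counts.

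The proportions of the 7 genes were close between groups for some and not for others, again as a description. Of every 100 marker UMIs, Defa24 gave 46.8, 48.2 and 41.4 in the marker-rich clumps of mice 1, 3 and 4, 48.2, 45.3 and 50.5 in the low-marker members, and 48.9, 58.1 and 51.0 in the villus-like clumps. Lyz1 gave 8.48, 8.59 and 7.75 in the marker-rich clumps and 11.6, 9.17 and 7.61 in the villus-like clumps. Itln1, encoding the lectin intelectin, gave 3.48, 4.06 and 5.67 in the marker-rich clumps and 4.20, 8.34 and 5.66 in the villus-like clumps. The low-marker members of mouse 3, with 265 marker UMIs in all, stood out for Itln1 (12.1) and Lyz1 (14.0). Defa17 gave 27.9, 27.2 and 31.6 in the marker-rich clumps, more than the 21.2, 16.2 and 22.1 in the villus-like clumps. Mmp7 ran the other way, with 0.366, 0.594 and 0.688 in the marker-rich clumps, 2.39, 7.55 and 1.34 in the low-marker members and 0.876, 1.05 and 0.863 in the villus-like clumps. AY761185 gave 0.574, 0.327 and 0.737 in the marker-rich clumps and 0.175, 0 and 0.113 in the villus-like clumps.

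The share of wells that were members was 3.69 ± 2.82% of crypt-like pairs (SD, n = 5 mice) and 25.6 ± 27.4% of crypt-like larger clumps (n = 3). In pairs it was 1.95% in mouse 1, 1.33% in mouse 2, 8.31% in mouse 3, 2.51% in mouse 4 and 4.35% in mouse 5. In larger clumps it was 17.2% in mouse 1, 56.3% in mouse 4 and 3.40% in mouse 5. The 2 kinds of clump overlapped between mice, and the high value of mouse 4 stood beside the villus-like share given above. Counted at a marker share of 1% or more, the shares were 2.85 ± 1.96% of pairs and 6.28 ± 3.69% of larger clumps, and these too are a description with no test.

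To ask which genes outside the rule went with the markers, UMIs were summed per mouse and group and compared with edgeR's quasi-likelihood test, after the 7 marker genes and the 3 apolipoprotein genes had been removed. Levels below are in CPM, here UMIs per 1000000 UMIs outside the rule genes, the apolipoproteins, the alpha-defensin cluster and the other listed antimicrobial genes; all of these but the apolipoproteins took 74.7, 68.5 and 54.6% of all UMIs in the marker-rich clumps of mice 1, 3 and 4, against 0.910 to 4.17% in marker-poor clumps. The libraries count 3′ ends, so levels are not scaled by gene length and are compared for 1 gene between groups. Log2 fold changes carry the standard error of the fit, which kept those genes in its library sizes.

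Across all members, with 4 mice against 5, 35 of 7100 genes were higher (0.493%) and 0 were lower (0.0%) at an adjusted p below 0.05. The unadjusted p was below 0.05 for 355 genes, and DESeq2 also called 35 higher and 0 lower. Of the 35, 26 lay in the alpha-defensin cluster on chromosome 8 and 6 more were listed antimicrobial or secreted Paneth cell products. The other 3 were the chemokine genes Ccl6 and Ccl9 and Reg4, a secreted lectin of the regenerating family. With the mouse as a block, which pairs the groups of each animal, 21 genes were lower in place of 0, and 43 were higher.

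In the low-marker members alone, with 3 mice against 5, 1 of 7686 genes was higher (0.013%), 0 were lower (0.0%) and 206 had an unadjusted p below 0.05. The 1 gene was the alpha-defensin Defa3, with a log2 fold change of 4.29 (SE 0.537, adjusted p 0.0237), and 88.4% of the 60-base words of its last 300 bases occur in other genes as well, most often in the rule gene Defa17. All 16 tested alpha-defensins had positive values, with a median of 2.71. Their summed level was 2140 to 2996 CPM, against 33.2 to 520 in marker-poor clumps and 58.9 to 3906 in villus-like clumps, so it lay above every marker-poor mouse and within the range of the villus-like mice. Within a mouse the order differed. The whole cluster, rule genes included, had 1432, 539 and 54690 UMIs in the low-marker members of mice 1, 3 and 4. They stood beside 407513, 158419 and 10685425 UMIs outside the antimicrobial genes. In villus-like clumps it had 2229, 5904 and 6134, beside 1215074, 3436572 and 936309. The low-marker members were thus higher in mice 1 and 3 and lower in mouse 4. Lyz2 had levels of 29.4, 31.6 and 21.4 in the low-marker members of mice 1, 3 and 4, and Ang4 19.6, 25.2 and 32.0. These levels were above those of every marker-poor mouse (Lyz2 0 to 11.1, Ang4 0 to 5.71) and far below those of the marker-rich clumps given below, and neither gene passed this test. Enterocyte genes had negative values in 22 of 22 tested and dividing cell genes positive values in 45 of 45, with medians of -0.58 and 0.50.

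With the mouse as a block, which sets the low-marker members of each mouse beside the marker-poor clumps of the same animal, 16 of 7871 genes were higher (0.203%) and 9 lower (0.114%), and 336 had an unadjusted p below 0.05. Of the 16, 14 were genes of the alpha-defensin cluster. The other 2 were Lyz2, at 4.55 ± 0.67 (edgeR adjusted p 0.006), and Ang4, at 2.43 ± 0.44 (0.0354). Defa3 stood at 3.89 ± 0.28 (1.24e-05). The lower genes included the fatty acid binding protein genes Fabp1 (-0.96) and Fabp2 (-0.87) of enterocytes, the selenoprotein gene Sepp1 (-1.12) and 6 genes with systematic names.

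In marker-rich clumps, with mice 1, 3 and 4 against 5, 94 of 7071 genes were higher (1.33%) and 43 lower (0.608%), with 1112 at an unadjusted p below 0.05. All 35 genes called over the whole membership were among the 94. Of the 94, 34 lay in the alpha-defensin cluster and 47 in that cluster or the list of other Paneth products, which left 47 other genes. The median log2 fold change of all genes tested was -0.03. At a marker share of 5%, a limit set after the distribution had been seen, 128 of 6689 genes were higher (1.91%) and 162 lower (2.42%), 4.34% in either direction, and 130 genes were called at both limits. Of the lower genes 0 remained called without mouse 1 and 1 without mouse 3, each with 2 member mice left, and 72 were called without mouse 4, while the number of higher genes stayed between 71 and 97. In larger clumps alone 51 were higher and 0 lower, and paired by mouse 112 were higher and 72 lower. Against marker-poor clumps of the same plates 80 were higher and 19 lower, and against marker-poor clumps matched on UMIs outside the antimicrobial genes 54 of 3028 tested were higher and 4 lower. With the antimicrobial genes left out of the counts, and so of both the test and the library sizes, 37 were higher and 16 lower, and 29 of the 47 higher and 16 of the 42 lower genes that could still be tested were called again. Of the 38 named calls among them 16 were lost, at adjusted p of 0.051 to 0.0701. These were Agr2, Txndc5, Sec11c, Soat1, Phlda1, Igfbp4 and Krt18 among the higher genes, and Pfkp, Alpi, Anpep, Slc6a4, Papss2, Cyp4v3, Mpp1, Maf and Tmem236 among the lower.

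The alpha-defensins rose together. Of 54 genes listed, 23 were in the table outside the rule, all 23 were tested and all 23 were higher, with a median log2 fold change of 11.82. With the low-marker members in place of the marker-rich clumps, 16 passed the low-count filter. The others entered the test through the marker-rich group, which defensins of the rule helped to choose, so this count is a description. They cannot be taken as independent of one another, since 17 of the 23 share more than 50% of the 60-base words of their last 300 bases with another annotated gene. Counting of 3′ ends can move UMIs between such copies. The gene most shared with was a rule gene for Defa3 (Defa17, 88.4% of words shared in all) and Gm15284 (Defa24, 31.1%). For the others it lay outside the rule. Defa3 had 94217, 66123 and 70660 CPM in the marker-rich clumps of mice 1, 3 and 4 and 0 to 15.1 in marker-poor clumps (log2 fold change 13.27 ± 0.87, adjusted p 1.16e-07). In the members as a whole 22 of 22 tested were higher, with a median of 9.61.

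Lyz2, at chr10:117277331-117282321, lay outside the rule and outside the defensin cluster and rose strongly. It had 17637, 10665 and 10729 CPM in the marker-rich clumps of mice 1, 3 and 4, against 1.14, 11.1, 0, 1.78 and 0 in the marker-poor clumps of mice 1 to 5. The groups lay far apart (log2 fold change 12.01 ± 0.77, edgeR adjusted p 9.47e-08). Lyz2 is best known from macrophages and other myeloid cells, and 5 other myeloid genes, Csf1r, Cd68, C1qa, C1qb and C1qc, chosen after their values were seen, each had 0 UMIs in the marker-rich clumps of the 3 mice, beside 8374 UMIs of Lyz2. Of the 11 myeloid genes 7 had none. Itgam and Fcer1g had 1 UMI each, and Cx3cr1 had 23, a pooled level of 32.6 CPM against 16.6 in the marker-poor clumps. The summed level of 10680 to 17660 CPM, against 27.4 to 58.1 in marker-poor clumps, was nearly all Lyz2. The 3′ ends of Lyz1 and Lyz2 share 18.7% of their words, so a part of the Lyz2 UMIs could be assigned between the 2 genes, and how large a part was not tested.

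Most other Paneth products on the list were higher as well. Of 24 listed genes 22 were in the table and 18 were tested, of which 14 were higher and 1 lower, with a median log2 fold change of 7.28. Gm7861 stands on this list and on that of the defensins. With the low-marker members in place of the marker-rich clumps, 10 passed the low-count filter. The others entered the test through the marker-rich group, so the filter in part sets this count and median. Ang4 (chr14:51763878-51773590), an angiogenin that kills bacteria, had 12648, 10292 and 9280 CPM in mice 1, 3 and 4 against 5.71, 0, 4.29, 4.45 and 0 in the marker-poor clumps (11.50 ± 0.59, adjusted p 1.05e-08). Its relative Ang5 rose by 11.83 ± 0.52, and 8.30% of their 3′ words are shared. The pentraxin gene Mptx2 stood at 9637, 10386 and 8293 against 0 to 11.8 (10.63 ± 0.57, adjusted p 1.57e-08). All 3 marker-rich mice lay within a narrow range for Mptx2 and Ang4.

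Digestive and protease genes on the same list were no less clear. Clps, encoding colipase, the cofactor of pancreatic lipase, had 3650.3, 2580.1 and 2634 CPM in the marker-rich clumps and 1.07 to 4.15 in the marker-poor clumps (10.02 ± 0.45, adjusted p 5.07e-09). Pnliprp2, a pancreatic lipase-related gene, had 298.5, 456 and 472 and no UMI in any marker-poor mouse. Its pooled level was 576.1-fold above the limit that 0 allows, taken as 3 UMIs over the whole marker-poor group. The secreted phospholipase gene Pla2g2a rose by 7.96 ± 0.47, the serine protease gene Habp2 by 7.78 ± 0.59 and the stress protein gene Nupr1 by 6.78 ± 0.40. Rnase1, a secreted ribonuclease, varied widely between the mice with 68.2, 139.7 and 497, against 6.91 to 15.0 (4.56 ± 0.55, edgeR adjusted p 9.96e-05, and 3.16 without mouse 4).

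Spink4, a protease inhibitor gene also made by goblet cells, also had a sizeable level in marker-poor clumps. It had 9509.5, 10022 and 10411 CPM in the marker-rich clumps and 311, 259.9, 289.7, 350.6 and 357 in the marker-poor clumps (4.87 ± 0.36, adjusted p 3.21e-07). In the low-marker members it had 378, 3844 and 664, so mouse 3 stood apart there. The guanylin gene Guca2a rose by 2.44 ± 0.34 (adjusted p 0.000421), with 1032, 1462 and 534 against 109 to 227, but was not called in larger clumps alone. Its relative Guca2b, encoding uroguanylin, had a log2 fold change of 1.30 and did not pass (adjusted p 0.111).

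The Reg3 lectins, bactericidal proteins made by enterocytes as well, went the other way or did not pass. Reg3a fell, with 8.53, 46.6 and 39.5 CPM against 212, 87.1, 162, 85.4 and 207 (-2.24 ± 0.53, adjusted p 0.0423), and lost the call whichever of the 3 mice was left out (adjusted p 0.375, 0.216 and 0.0564 without mice 1, 3 and 4). Reg3b had 588, 4499 and 2056 against 4368 to 26612 (log2 fold change -2.78, adjusted p 0.0927), and Reg3g -0.92 (adjusted p 0.463). Marker-rich and marker-poor mice overlapped for both.

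**Figure D3:**
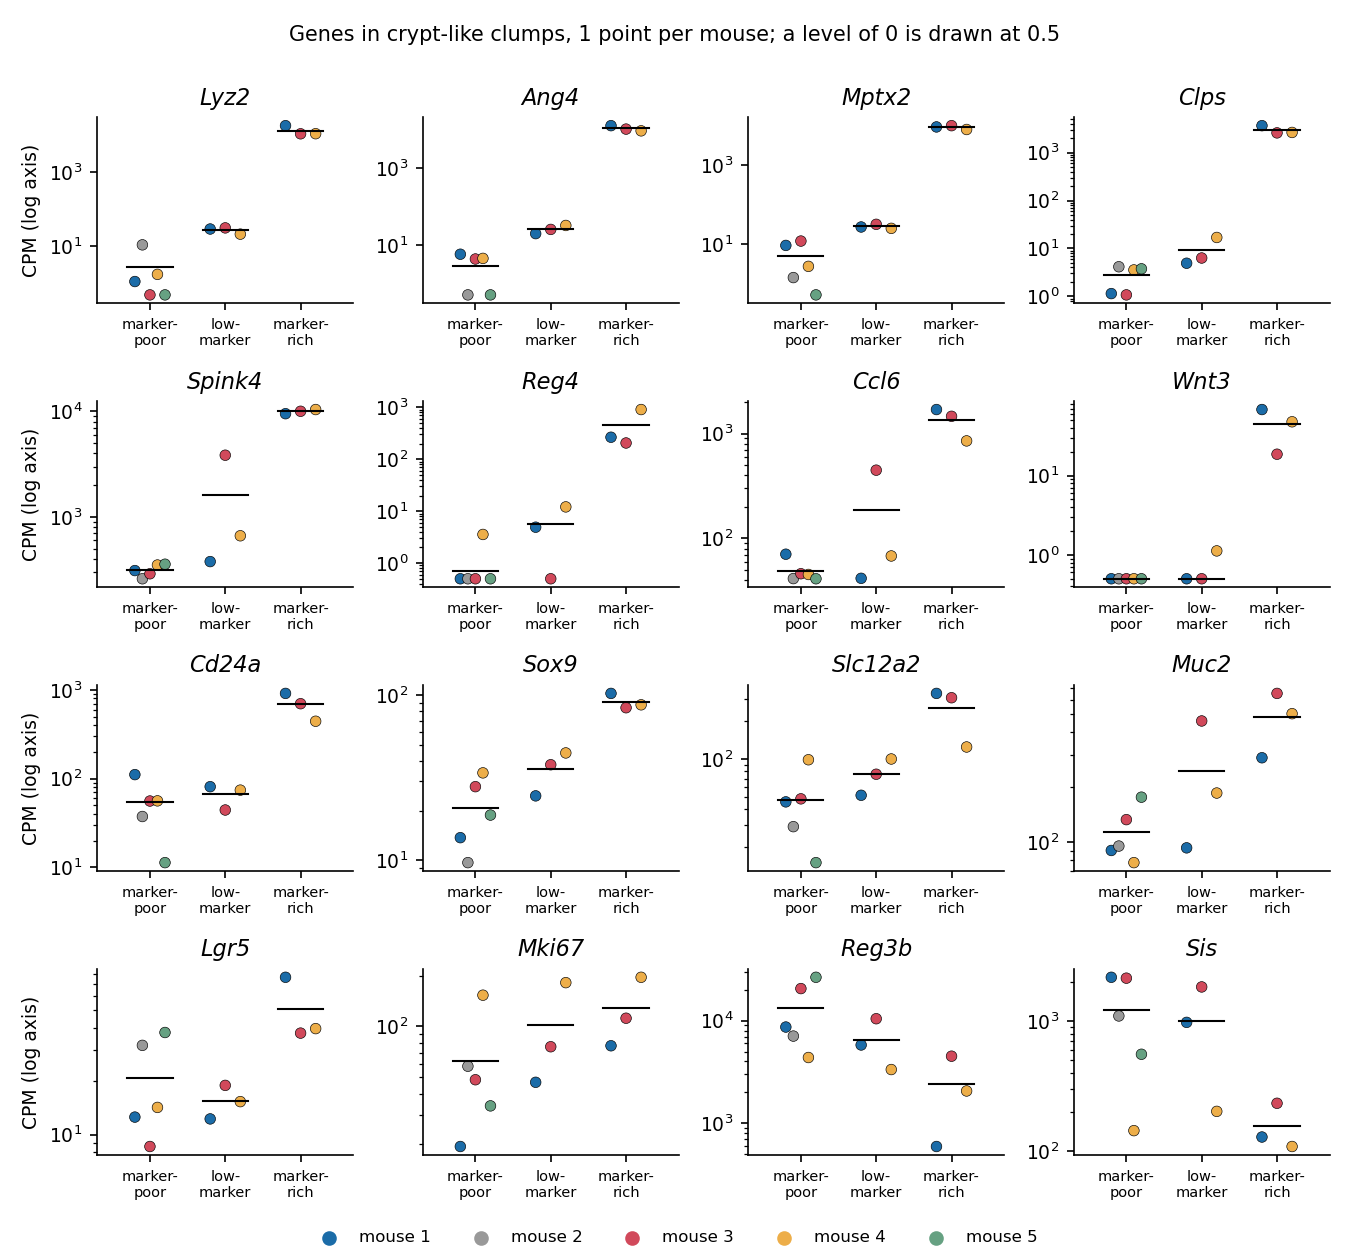
Levels of 16 genes (y axis, CPM, log scale) in marker-poor clumps, low-marker members and marker-rich clumps, with 1 point per mouse and a bar at the mean; a level of 0 is drawn at 0.5. The upper 12 genes are separated between marker-poor and marker-rich clumps, with Lyz2 at 10665 to 17637 in the latter, while Lgr5, Mki67, Reg3b and Sis overlap.

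Signals that Paneth cells present to stem cells were scarce in 3′ counts. Of 21 listed niche genes in the table, 0 passed the low-count filter, so 0 were tested, and together they had 58 UMIs in the marker-rich clumps of mice 1, 3 and 4. Wnt3, which encodes a Wnt ligand that keeps stem cells dividing, had 8, 2 and 23 of these UMIs (levels of 68.2, 18.6 and 47.8) and 0 in the marker-poor clumps of all 5 mice. Its pooled level of 46.8 CPM was 61.1-fold above the same limit of 3 UMIs. The counting error of its own 33 UMIs and the spread between the mice are not in this value. The low-marker members held 12 Wnt3 UMIs, all in mouse 4. Egf and the Notch ligand gene Dll4 had 4 UMIs each in the marker-rich clumps, Dll1 had 3 and Jag1 had 0, too few for a comparison. The summed level of the niche list was 72.8 to 112 in marker-rich clumps, 22.8 to 54.7 in marker-poor clumps and 155 to 297 in villus-like clumps.

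Of 22 listed surface genes 11 were tested, and 1 of these, Cd24a, rose, beside 1.33% of all genes. It encodes the small glycoprotein by which Paneth cells are often sorted, and it had 913, 699 and 443 CPM in the marker-rich clumps against 111, 37.3, 55.8, 56.1 and 11.3 (3.55 ± 0.41, adjusted p 5.24e-05). It was not called in larger clumps alone (adjusted p 0.116), and over all members its log2 fold change was 1.68 (adjusted p 0.408). The other 10 did not pass, with a list median of -0.35. Ephb3, a receptor that positions crypt cells, was not tested and had 17.1, 46.6 and 16.6 CPM, from 15 UMIs, against 2.76 to 6.85. Pigr, the receptor that carries immunoglobulin A across the epithelium, had 1075, 1593 and 1407 against 1410 to 2192 (log2 fold change -0.51, adjusted p 0.433).

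Of 20 tested secretory fate factors 2 were higher, beside 1.33% of all genes, and 0 lower, with a median of 0.08; the counts of the lists that follow stand beside the same 1.33% higher and 0.608% lower, and those at a marker share of 5% beside 1.91% higher and 2.42% lower. At a marker share of 5% 3 of 17 were higher, Sox9, Sox4 and Myb. Sox9, which Paneth cells need to form, had 102, 83.8 and 87.3 CPM against 9.68 to 33.8 (2.04 ± 0.43, adjusted p 0.0226). Spdef, which drives the maturation of Paneth and goblet cells, rose by 2.44 ± 0.45 (adjusted p 0.00941). Both lost the call without mouse 1 (adjusted p 0.224 for each) and without mouse 3 (0.11 and 0.166). Atoh1 and Gfi1, other factors of the secretory lineage, had 16 and 2 UMIs and were not tested. Xbp1, which builds secretory capacity, had a log2 fold change of -0.23 (adjusted p 0.846).

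Of 67 tested protein folding genes of the endoplasmic reticulum 3 were higher, beside 1.33% of all genes, and 0 lower, with positive values in 46 of the 67 and a median of 0.13. The 3 were Agr2 and Txndc5, both disulfide isomerase genes, at 1.55 ± 0.35 and 1.62 ± 0.37, and the signal peptidase gene Sec11c at 1.27 ± 0.28, with adjusted p of 0.0336, 0.0368 and 0.0324. Without mouse 1 these p were 0.224, 0.397 and 0.447, and without mouse 3 they were 0.321, 0.171 and 0.198. The chaperone gene Hspa5 stood at 0.04 (adjusted p 0.974). At a marker share of 5%, Fkbp11 and Herpud1 were higher in addition to these 3.

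Of 21 tested granule and zinc genes 1 was higher, with a median of -0.30. This was Rab3d, a small GTPase of secretory granules, which had 85.3, 121 and 81.1 CPM against 3.76 to 22.1 (2.60 ± 0.39, adjusted p 0.00104). It kept the call without each mouse and lost it in larger clumps alone and against marker-poor clumps matched on UMIs outside the antimicrobial genes. Among genes on no list and named after their values were seen, Tmed6 (5.76 ± 0.59), encoding a cargo receptor of early secretion, and Nucb2 (4.39 ± 0.46), a calcium-binding secreted protein gene, rose and kept the call in all alternatives in which they were tested. Qsox1, a sulfhydryl oxidase gene, rose by 3.24 ± 0.57 (adjusted p 0.00566) and lost the call without mouse 3 (0.072) or mouse 4 (0.0838). Bambi, encoding a decoy receptor for bone morphogenetic proteins, and Lbh, a transcriptional cofactor gene, rose by 6.18 ± 0.68 and 5.66 ± 0.60.

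Stem cell genes were mostly higher in value, and 6 of 20 passed the test with none lower and a median of 1.66. The 6 were Soat1, Phlda1, Igfbp4, Slc12a2, Sox9 and Hopx. Slc12a2, a sodium, potassium and chloride transporter gene of crypt cells, had 333, 307 and 125 CPM against 15.0 to 98.8 (2.22 ± 0.45, adjusted p 0.0177). Soat1 rose by 2.91 ± 0.63, Igfbp4 by 2.47 ± 0.57 and Hopx, named after its value was seen, by 1.51 ± 0.32, and Phlda1 had 59.7, 102 and 24.9 CPM against 3.43 to 17.2 (adjusted p 0.0477). All 6 lost the call without mouse 1 (adjusted p 0.156 to 0.481) and without mouse 3 (0.11 to 0.251). The markers most particular to crypt base columnar stem cells did not pass at this limit: Lgr5 had 76.8, 37.3 and 39.5 against 8.58 to 37.6 (log2 fold change 1.28, adjusted p 0.311), Olfm4 1.63 (0.334), Smoc2 1.86 (0.0647) and Ascl2 2.30 (0.0637). In the wells at a marker share of 5%, 8 of 16 tested stem cell genes were higher, Smoc2 and Cdca7 in addition to the 6.

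None of 42 tested genes of dividing cells passed, with a median of 0.71; 40 of the 42 had positive values. Mki67, a protein of dividing nuclei, had 76.8, 112 and 195 CPM against 19.4, 58.1, 48.3, 153 and 33.8 (log2 fold change 1.00, adjusted p 0.402), and the highest values of both groups were those of mouse 4. Top2a was at 0.84 (0.374) and Pcna at 0.42 (0.533). At a marker share of 5%, 2 of 40 tested, Tubb5 and Stmn1, were higher. Of 11 Wnt target genes, 1 was higher, again Sox9, with a median of 1.28.

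Goblet cell genes were partly higher. Of 12 tested 6 rose and 0 fell, with a median of 1.77: Ccl9, Ccl6, Guca2a, Spdef, Muc2 and Agr2. The chemokine gene Ccl6 had 1697, 1462 and 852 CPM against 70.8, 41.5, 46.1, 45.4 and 41.3 (4.66 ± 0.30, adjusted p 1.16e-07), and Ccl9 rose by 4.74 ± 0.41 (2.43e-06); both kept the call in all alternatives in which they were tested. Muc2, the gel-forming mucin gene, had 290.0, 652 and 505 against 77.4 to 177 (1.95 ± 0.38, adjusted p 0.0123) and lost the call without mouse 3 (0.198) or mouse 4 (0.0561). Zg16 and Clca1, mucus proteins of goblet cells, were named after their values were seen and had log2 fold changes of -1.82 (adjusted p 0.0864) and -1.16 (0.272). The summed goblet level, which includes the 6 genes that rose, was 5939 to 10110 in marker-rich and 2308 to 5546 in marker-poor clumps. The 5 genes that chose the goblet containing clumps (given further on) overlapped, at 2192 to 5179 and 1619 to 5142. Of the marker-rich wells 30.7% had 10 or more UMIs of these 5 genes, against 9.03% of the marker-poor wells. The part of goblet cells in the results was not tested.

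Among enteroendocrine genes Reg4 had most of the UMIs. It had 264, 205 and 902 CPM in the marker-rich clumps and 0, 0, 0, 3.56 and 0 in the marker-poor clumps (8.65 ± 0.78, adjusted p 3.36e-06). Reg4 was the 1 of 5 tested genes of that list to rise, with a list median of -2.21, and it gave 487 of the list's 553 UMIs. Of the hormone and granule genes, Chga had 2 UMIs, Chgb 7, Gip 5, Sst 0 and Pyy 0. Sct, encoding secretin, had 35 UMIs, a pooled level of 49.6 CPM, against 59 UMIs and 15.1 CPM in the marker-poor clumps. Sct was called higher beside Reg4 in the wells at a marker share of 5%.

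Enterocyte genes had negative values, 22 of 22 tested, with a median of -1.51, and 4 passed. Sis, the sucrase-isomaltase gene of the brush border, had 128, 233 and 108 CPM against 2180.1, 1097.5, 2146, 143 and 556 (-3.04 ± 0.66, adjusted p 0.0294). Mouse 4 was low in both groups, so the ranges overlapped. Alpi, Mttp and Anpep fell by 2.10, 2.08 and 1.99 on the log2 scale, and the brush border gene Vil1, on the epithelial list, by 1.72. Sis stood at -2.69 without mouse 1 and -3.08 without mouse 3, and Vil1 at -1.47 and -1.81, so the falls themselves stayed close. All of these lost the call without mouse 1 (adjusted p 0.222 to 0.351) and without mouse 3 (0.0954 to 0.239), and Alpi also without mouse 4 (0.0681). The summed enterocyte level was 2115 to 6278 in marker-rich, 4755 to 15490 in marker-poor and 28480 to 66470 in villus-like clumps. In the epithelial list the keratin gene Krt18 rose by 1.27 (adjusted p 0.0481; 0.303, 0.216 and 0.0528 without mice 1, 3 and 4), while Epcam, named after its value was seen, was at -0.27 (0.692).

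Of 15 glycolysis and lactate genes 1 fell, with a median of -0.84: Pfkp, a phosphofructokinase gene, at -1.60 ± 0.37 (adjusted p 0.0393; 0.351 without mouse 1 and 0.304 without mouse 3). Outside the lists, the largest falls were those of the serotonin transporter gene Slc6a4 (-2.92), Papss2 (-2.84), the myosin kinase gene Mylk (-2.79), Cyp4v3 (-2.54), the aminopeptidase gene Enpep (-2.53), Mpp1 (-2.48), Apol10a (-2.48), Maf (-2.46), the amino acid transporter gene Slc7a9 (-2.39) and Tmem236 (-2.37). Mylk stood at -2.68 without mouse 1 and -3.08 without mouse 3, and Mpp1 at -2.54 and -2.61. None of these 10 kept the call without mouse 1 (adjusted p 0.113 to 0.303), without mouse 3 Enpep alone did (0.0317), and Slc6a4, Papss2 and Enpep also lost it without mouse 4 (0.106, 0.0589 and 0.0632). The largest rises outside the lists were 10 further genes and pseudogenes of the defensin cluster, led by Gm21002 at 13.53. They share the cluster with genes of the rule. Fold changes of this size rest on levels near 0 in marker-poor clumps, so their order carries little. At a marker share of 5%, 11 of 22 enterocyte genes and 5 of 15 glycolysis and lactate genes were lower, beside 2.42% of all genes. None of 9 interferon and antigen presentation genes passed (median -0.64).

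Markers of most other cell types had few UMIs. Of 16 tuft cell genes 6 had no UMI in the marker-rich clumps and the rest 17 together, at 0 to 34.1 CPM in a mouse against 15.1 to 131 in marker-poor clumps. Of 17 lymphocyte genes 11 had no UMI, Cd3e, Cd3g and Trac among them, and the list ran from 9.31 to 25.6 against 5.34 to 471. Of 13 stromal and endothelial genes 9 had no UMI, and 3 of 3 erythroid genes had none. Plasma and B cell genes ran from 158 to 776 against 81.9 to 2260; 218 of their 225 UMIs were Cd74, an antigen presentation gene, and Igha had 3. No gene of the tuft, lymphocyte, stromal or erythroid lists passed the filter for the test, and the 1 plasma and B cell gene that did was at -0.21.

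**Figure D4:**
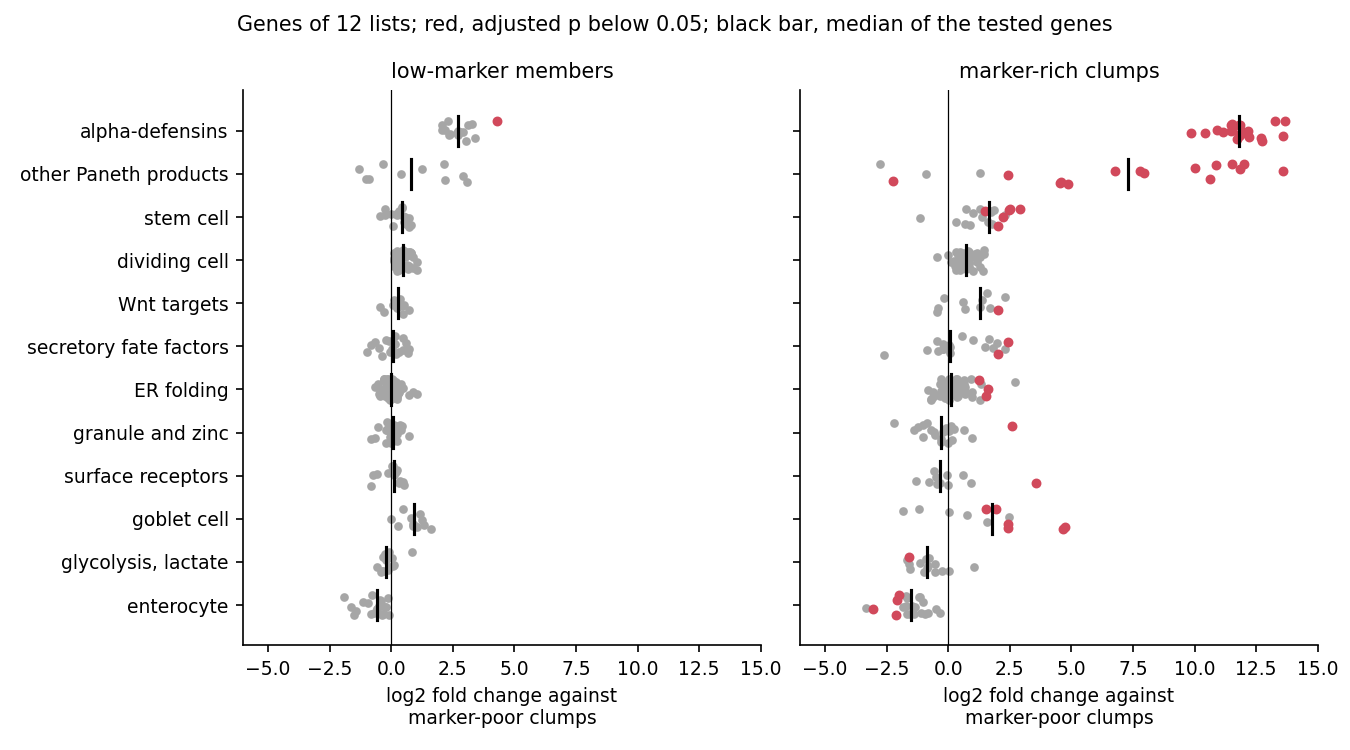
Log2 fold changes of the tested genes of 12 lists (x axis) in low-marker members and in marker-rich clumps, each against marker-poor clumps, with 1 point per gene, red where the adjusted p was below 0.05 and a black bar at the list's median. In the marker-rich panel the alpha-defensins stand at a median of 11.82 and the other Paneth products at 7.28, the enterocyte genes at -1.51; in the low-marker panel Defa3 is the 1 red point.

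Whether the difference between members and marker-poor clumps depended on the kind of clump was asked with an interaction of group and DNA content. It used 13 sums of mice 1 to 5, of which 2 were of member pairs and 3 of larger member clumps. The log2 difference was higher in the larger clumps than in pairs for 0 of 6945 genes (0.0%) and lower for 1 (0.0144%), with 74 at an unadjusted p below 0.05. The 1 gene was Col25a1, encoding a membrane collagen, at -6.99 ± 1.18 (edgeR adjusted p 0.0135). Its values rested on the member pairs of mouse 3, with 82 UMIs, while those of mouse 4 had 0, and without mouse 3 or mouse 5 no gene was called (181 and 98 at an unadjusted p below 0.05). Without mouse 1 it did not pass the filter for the test, and 1 other gene was called.

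The levels changed sharply with the number of marker UMIs in a well. In wells with 300 or more marker UMIs, which numbered 23, 17 and 44 in mice 1, 3 and 4, the antimicrobial genes took 78.2, 69.4 and 64.4% of all UMIs. In wells with 100 or more but fewer than 300 they took 12.0% (3 wells), 57.2% (3 wells) and 2.87% (20 wells). Just inside the threshold, at 10 to 29 marker UMIs, they took 1.62, 2.75 and 1.09% in 29, 12 and 576 wells, and at 0 to 1 marker UMIs 1.78, 3.51 and 0.910%. This total includes the rule genes and the Reg3 lectins. The alpha-defensins outside the rule alone had 2329 to 2745 CPM at 10 to 29 marker UMIs and 33.2 to 520 at 0 to 1.

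Goblet containing clumps, 114 crypt-like wells with 10 or more UMIs of goblet genes and at most 1 marker UMI, were the secretory clumps chosen for comparison. Against them the members, those with fewer than 10 goblet UMIs, had 25 of 2760 genes higher (0.906%) and 2 lower (0.0725%), 0.978% in either direction; the 2 lower genes were Agr2 and 9530053A07Rik. All 25 were genes of the defensin cluster or other Paneth products, among them all 19 tested alpha-defensins. Paired by mouse, 6 were lower in place of 2. The marker-rich clumps, here without the limit on goblet UMIs, had 50 of 3261 genes higher (1.53%) and 6 lower (0.184%). With that limit, which left 23, 15 and 101 wells in mice 1, 3 and 4, 41 of 1941 genes were higher and 6 lower, and 40 of the higher genes and 1 of the lower, Plac8, were called in both.

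Of the 50 called without the limit, 42 belonged to the cluster or the list of Paneth products and 8 did not. Reg4 was higher by 6.80 ± 0.78 (adjusted p 1.32e-05), with 0 to 10.4 CPM in the goblet containing clumps. Ccl9 and Ccl6, which stand on the goblet list, were higher in the marker-rich clumps by 3.03 ± 0.41 (0.000114) and 1.94 ± 0.47 (0.0488). Stmn1, a microtubule protein of dividing cells, was higher by 1.65 ± 0.40 (0.0488), and Cd24a by 3.77 (4.74e-06). With the limit on goblet UMIs Reg4 (adjusted p 8.98e-06) and Cd24a (0.000131) kept the call, Ccl6 (0.305) and Stmn1 (0.0765) lost it, and Ccl9 was not tested. Lyz2 had no UMI in the goblet containing clumps of any mouse. Sis, Enpep, Gsta1, Apol10a, Tm4sf5 and Plac8 were lower, from -2.73 for Sis to -1.43 for Plac8, and with the limit Plac8 alone of these kept the call (adjusted p 0.0118).

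The genes of the alpha-defensin cluster took different shares of its UMIs in the 3 mice. The cluster's 45 genes in the table lie at chr8:21025545-21735471. Defa20 gave 5.22 and 2.40% of the cluster's UMIs in the marker-rich clumps of mice 1 and 3 and 0.346% in mouse 4. Defa2 gave 10.8, 9.24 and 2.39% and Gm15308 8.30, 7.65 and 1.57%, while Defa21 gave 5.14, 6.16 and 1.49% and Defa22 5.35, 6.07 and 1.61%. Mouse 4 was lowest for all 5 of these genes, which were chosen after their values were seen.

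Other genes of the cluster ran the opposite way. Defa23 gave 3.56, 4.57 and 8.79%, Defa3 3.35, 3.23 and 6.47%, Defa17 5.58, 5.92 and 11.5% and Gm15284 10.9, 12.0 and 16.9%. Since Defa2, Defa20, Gm15308, Defa23 and Defa-rs7 each have 3′ ends that other members share over all of their words, genes with such ends were also summed. In the marker-rich wells with 100 or more cluster UMIs, 111 in mice 1, 3 and 4 and 3 in mouse 5, Defa2, Defa20 and Gm15308 together had a median of 22.5% in mouse 1 (range 0 to 38.9%, 28 wells), 18.6% in mouse 3 (0.885 to 41.5%, 21 wells) and 1.99% in mouse 4 (0 to 21.7%, 62 wells). Mouse 4 was low in pairs (3.98%, 4 wells) as in larger clumps (1.99%, 58 wells), and the 3 wells of mouse 5 had 17.9, 21.8 and 23.98%. In the same wells of mice 1, 3 and 4, Defa3 and Defa17 together had medians of 9.23, 8.68 and 19.8%, and Defa23 and Defa-rs7 5.19, 6.34 and 11.8%. Defa2 gave 10.8% of the cluster's UMIs over the 4 marker-rich wells of mouse 5 and 4.75% over the 4 members among the clumps above 2n of mouse 6.

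In the villus-like clumps of the same mice Defa20 stood at 3.28, 1.22 and 0.0652% and Defa2 at 10.3, 7.74 and 2.01%, in the order of the marker-rich clumps. Defa21 (5.61, 5.47 and 1.79%) and Defa22 (6.10, 5.23 and 2.05%) were again lowest in mouse 4, but mouse 1 stood above mouse 3, the reverse of their order in the marker-rich clumps. With 3 mice of 1 strain and no group to compare, no test was made, and differences between the mice and between their plates and libraries cannot be told apart.

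**Figure D5:**
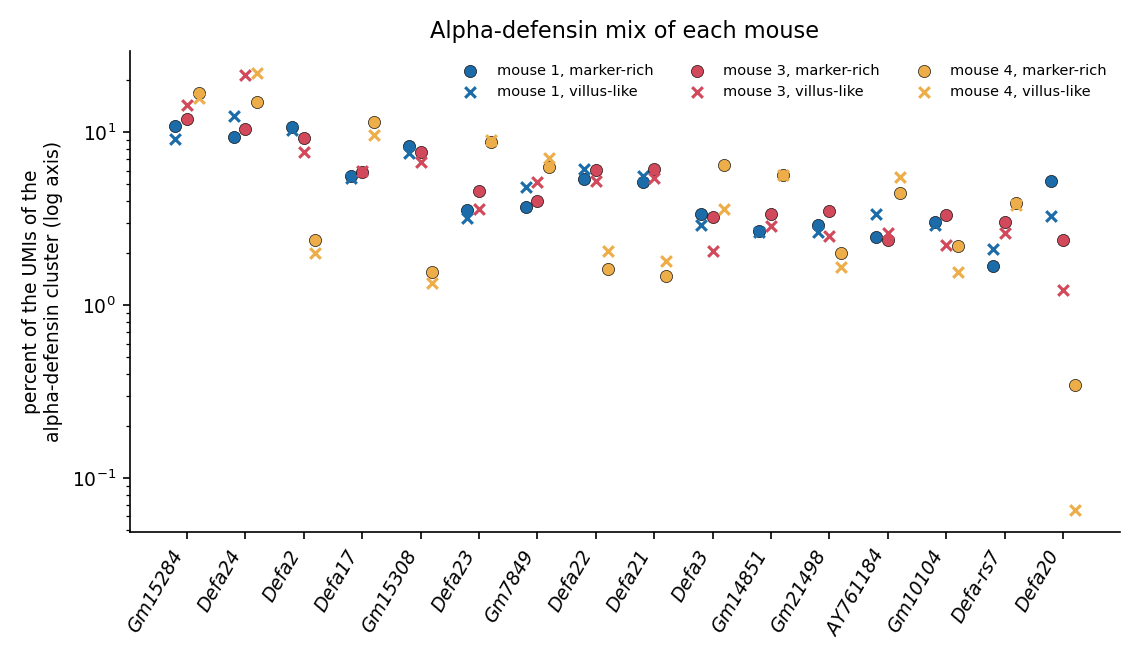
The share of the alpha-defensin cluster's UMIs given by each of 16 genes (y axis, percent, log scale) in mice 1, 3 and 4, with circles for marker-rich clumps and crosses for villus-like clumps. Defa20 runs from 5.22% in mouse 1 to 0.346% in mouse 4 in the marker-rich clumps, and the crosses follow the order of the circles for Defa20 and Defa2.

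The genes whose counts went most closely with the marker sum from well to well were again Paneth products. Over the 1075 members, Spearman's rho was 0.491 for Defa3, 0.477 for Defa26, 0.461 for Gm15299 and 0.46 for Lyz2. Outside the cluster, Clps (0.448), Ang5 (0.412), Mptx2 (0.402), Ang4 (0.39), Spink4 (0.376) and Reg4 (0.343) came after Lyz2. Over the 205 marker-rich wells the values were higher, at 0.84 for Defa3, 0.822 for Lyz2, 0.808 for Clps, 0.797 for Ang5, 0.786 for Ang4 and 0.766 for Spink4. These are descriptions over wells that share libraries and differ in depth.

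The same rule found similar wells in samples it had not been applied to. Clumps above 2n of mouse 6 held 4 members among 134 crypt-like wells, of which 1 was marker-rich. Single cells of 4 mice, which were numbered separately from those of the clumps and sorted on epithelial and other surface markers, held 400 members and 99 marker-rich wells among 3088 crypt-like wells; the latter numbered 0, 80, 17 and 2 in mice 1 to 4. The labels give an age of 4 months for 3 of the single-cell plates of mouse 2 and of 3 months for all other plates. Only 2 of 957 villus-like single cells reached a marker share of 1%. Of the 357 members of mouse 2, 164 came from 1 plate.

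In those single cells Lyz2 had 31340 and 18520 CPM in the marker-rich cells of mice 2 and 3, against 101, 45.0, 26.5 and 61.6 in the marker-poor cells of mice 1 to 4. Rnase1 had 962.5 and 1006 against 3.31 to 7.32, and Ccl6 2992 and 2348 against 31.3 to 175. Wnt3 had 12 and 5 UMIs (48.1 and 93.2 CPM), against 0 to 4.63. Reg4 had 2727 and 1192 against 0, 1292, 47.9 and 5.05, Cd24a 1203 and 783 against 101 to 1782, and Agr2 686 and 4676 against 696, 294, 197 and 144, so that these 3 genes overlapped. Part of the single cells was gated on the CD24 protein, which Cd24a encodes, to enrich enteroendocrine and tuft cells, and the part of that gate in these levels was not tested. The Defa2 share of the cluster was 0.446 and 0.453%, below that of all 3 clump mice. With 2 mice in 1 group these are values with no test.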

How the data were processed

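MARS-seq libraries of the 3′ ends of polyadenylated RNA were made in 384-well plates. Reads were demultiplexed with bcl2fastq 2.15.0.4 (per the submitters' processing notes) and mapped by the authors with STAR within zUMIs to GRCm38 and its Ensembl genes. The deposited tables hold raw UMI counts per gene and well (27538 genes, 17162 clump wells), unnormalised. No well was identical to another.

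Wells were filtered and grouped as given in the report, and counts were summed per mouse and group, with at least 5 wells each. The 10 genes of the rule and of the crypt limit were removed. Sums were compared with edgeR 4.0.16 (quasi-likelihood test, TMM, filterByExpr, Benjamini-Hochberg adjustment over all genes tested, threshold 0.05) in R 4.3.3; DESeq2 1.42.0 was an alternative. The test was also run on simulated counts with known changes, and those values are not given here. The mouse was the replicate. Groups of 1 mouse are paired by the animal, and their deviations from the group means correlated at 0.281, 0.265, 0.480 and 0.160 in mice 1, 3, 4 and 5, so a fit with the mouse as a block was an alternative.

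Clumps hold several cells by design, so no doublet caller was run. Median depth of the groups is given in the report. Binomial intervals are exact (Clopper-Pearson, 95%) and cover counting error only, and floors cover only that of the group at 0. Members and gene lists were chosen with earlier results of these data known. Named were the genes of the rule, the Paneth product, niche and surface lists with 20 or more CPM, a fixed set of stem, dividing, secretory and enterocyte genes, the 4 largest called changes of each other list, and the 10 largest rises and falls outside the lists at 50 or more CPM, each going the same way in every mouse; other genes, the markers named as near 0 among them, were chosen after their values were seen. Since mouse 4 alone had 5 wells of each of the 4 kinds of sum, the planned interaction of group and DNA content in mice 1, 4 and 5 was replaced by one over mice 1 to 5.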

Additional observations from a re-analysis of the deposited data

Results flagged for a closer look

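In sets of 4 or 5 mice, 139 were examined for 1 mouse that stood apart by Dixon's ratio, and 10 did; chance gives about 1 in 20. All values are CPM. In the marker-poor clumps, Lyz2 was 11.1 in mouse 2 against 0 to 1.78 in the others. Mki67 was 153 in mouse 4 against 19.4 to 58.1, Soat1 13.3 against 1.14 to 4.29 and Reg4 3.56 against 0, so mouse 4 was the highest for these 3 genes. Mylk was lowest in the same mouse, at 48.9 against 158 to 174. Xbp1 was 233 in mouse 5 against 108 to 132, and Ccl6 was 70.8 in mouse 1 against 41.3 to 46.1.

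Among the members, Top2a was 193 in mouse 4 against 89.5 to 93.4. Soat1 was 0 in mouse 5, which had 6 members, against 19.1 to 22.6. Tmem236 was 86.5 in mouse 3 against 35.8 to 40.0.

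A further pair of results came from wells outside the comparisons. Among the single cells, 99 had a marker share of 1% or more, and among the clumps above 2n of mouse 6, 4 had 10 or more marker UMIs.

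The difference between members and marker-poor clumps itself differed between larger clumps and pairs for Col25a1, by -6.99 on the log2 scale (edgeR adjusted p 0.0135). The member pairs of mouse 3 had 82 UMIs of it, at 179.8 CPM of all UMIs tested, and those of mouse 4 had 0.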

How the results depend on the processing

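For all members, where 35 genes were higher and 0 lower, leaving out each mouse gave 32 to 40 higher and 0 lower. The count of higher genes moved to 6 with the antimicrobial genes left out of the counts, which were all of the 6 called genes that could then be tested. It moved to 94 at a marker share of 1%, 128 at 5%, and below 1% to 1, or 16 with the replicate block. The count of lower genes moved to 21 with the mouse as a replicate block, 1 at 30 marker UMIs, 5 in pairs alone, 43 at 1%, 162 at 5% and 9 below 1% with the block. For goblet containing clumps (25 higher, 2 lower) the counts were 47 and 26 with no filter on low counts, 50 and 6 at 1% without the limit on goblet UMIs, and 41 and 6 at 1% with it; 5 were lower with DESeq2, 6 with the replicate block, and 24 to 34 higher and 1 to 3 lower with each mouse left out.

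For marker-rich clumps (94 higher, 43 lower), all of whose alternatives were chosen after seeing the data, the counts were 191 and 297 with no filter, 37 and 16 with the antimicrobial genes left out of the counts, 51 and 0 in clumps above 4n alone, and 54 and 4 against a reference matched on UMIs outside the antimicrobial genes. With the replicate block 72 were lower, with DESeq2 126, with a reference of the same plates 19, and at 5% 162. Leaving out each mouse gave 71 to 97 higher and 0 to 72 lower. The cause of these moves was not tested, except that the filter and the left-out genes set which genes can be called.

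Guca2b and Zg16 changed direction among members at a marker share of 5%, to log2 fold changes of 1.74 and -1.98 (edgeR adjusted p 0.0179 and 0.0449), from -0.04 and 0.34. Another 108 sign changes in members and 15 in marker-rich clumps concerned values that passed in neither setting. The mean share of members in larger clumps, 25.6 ± 27.4% (SD), fell to 10.97% at 30 marker UMIs, 18.8% with each well thinned, 6.28% at a marker share of 1% and 3.39% at 5%; in pairs, from 3.69%, it lay between 1.43 and 6.22%. For the interaction of group and DNA content (0 and 1 genes), chosen after seeing the data, 2 were lower with the replicate block, and 0 to 1 and 0 to 3 with each mouse left out. The depth of a well, and not its marker share alone, decided whether 10 UMIs were reached, and 3′ counts of niche signals were too few to test.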
